A study of Mus musculus with 238 samples.

Results

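The genes Nqo1, Hmox1, Gclc, Gclm, Txnrd1, Gpx1, Gpx4, Cat, Sod1 and Sod2 encode enzymes that cells use against oxidants and electrophiles, and many of them are known targets of the transcription factor Nrf2. These 10 genes were taken by name and not by any measured value, though earlier results of these data were known. Each had 1 row among the 21076 gene rows of the count table. Nrf2, encoded by Nfe2l2, is held in the cytoplasm by Keap1 and degraded. When oxidants or electrophiles modify Keap1, Nrf2 accumulates, pairs with small Maf proteins in the nucleus and binds antioxidant response elements beside its target genes. In the brain this programme is best known from astrocytes, which supply neurons with glutathione precursors, and in the liver the same enzymes belong to the detoxification machinery of hepatocytes.

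The RNA came from 16 C57BL/6JN mice, all aged 19 months, and was sequenced as 238 bulk libraries. In the diet experiment, 5 females on dietary restriction (aDR) were set against 4 females with free access to food (AL), with 15 brain regions and the liver sampled. The liver libraries of the restricted females are labelled DR. In the plasma experiment, 3 males that received young mouse plasma (YMP) by the retro-orbital route were set against 4 males that received PBS in the same way, with the same 15 brain regions sampled. Sex and experiment coincide, so levels in females and males are given side by side and not compared. The labels do not state how long the treatments lasted. Groups held 3 to 5 libraries per region, except the YMP corpus callosum with 2.

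Library totals ran from 0.606 to 32.4 M (mega) counts with a median of 8.44 M, and 6 libraries held fewer than 2 M. Levels are given as CPM, which relate the counts of a gene to the library total, here scaled by the TMM method so that libraries of different depth and composition can be compared. The dissection labels were checked against fixed marker genes. Hepatocyte markers (Alb, Apoa1, Apob, Cyp2e1, Cps1) summed to at least 125997 CPM in every liver library and to at most 13.1 CPM in every brain library. The 6 choroid plexus markers (Ttr, Kl, Folr1, Aqp1, Clic6, Kcnj13) did not follow the dissection labels: their sum ran from 158 to 15594 CPM in libraries labelled choroid plexus and reached 20514 CPM in the SVZ and 18905 CPM in the corpus callosum. The caudate putamen library of aDR mouse 64 also stood apart, with 3.56% of its counts on 85 cytosolic ribosomal protein genes, against 0.994 to 2.08% in the other brain libraries. The pons library of aDR mouse 67 held 23.4% of its counts on its 10 most abundant genes, against 3.54 to 8.74% in the other brain libraries.

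The members fall into 4 roles. For glutathione synthesis, Gclc (chr9:77754535-77794485) encodes the catalytic subunit and Gclm (chr3:122245557-122270732) the modifier subunit of glutamate-cysteine ligase, the rate-limiting enzyme. For reductases and heme breakdown, Nqo1 (chr8:107388225-107403206) encodes a quinone reductase, Txnrd1 (chr10:82833951-82897712) the cytosolic thioredoxin reductase, and Hmox1 (chr8:75093621-75100589) the inducible heme oxygenase. For peroxides, Gpx1 (chr9:108338903-108340343) encodes a glutathione peroxidase, Gpx4 (chr10:80047166-80056439) the peroxidase that reduces lipid hydroperoxides in membranes, and Cat (chr2:103453849-103485160) the peroxisomal enzyme catalase. For superoxide, Sod1 (chr16:90220754-90226329) encodes the copper-zinc dismutase of the cytosol and Sod2 (chr17:13006846-13040063) the manganese dismutase of mitochondria. Positions are those of the whole genes on GRCm38 in the GENCODE annotation. Exons of Gclm overlap those of Gm17494 on the opposite strand over 296 bases and those of the pseudogene Gm6061 over 244 of 6291 bases, and Gpx4 has the pseudogene copy Gpx4-ps2, so with unstranded counts a share of these values may belong to those genes.

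Upstream sequences from RefSeq (GRCm38.p6) were found for 8 of the members and are shown for the 3 that hold the core of the antioxidant response element and for Nqo1, on which the treatment results turn most. The motif searched was TGACNNNGC on both strands, and 4071 of 32851 promoter windows of 300 bases (12.4%) hold it. It occurs in the windows of Gclm, of the second listed start of Txnrd1 and of Sod1, each time on the strand opposite to the gene, and capitals mark it below. It does not occur in the windows of Nqo1, Gpx1, Gpx4, Cat and Sod2, which says only that these letters are not in that stretch. Each line gives the 250 bases before the start, written 5′ to 3′ on the strand of the gene.
Gclm, chr3:122245307-122245556, plus strand, motif beginning 134 bases before the start: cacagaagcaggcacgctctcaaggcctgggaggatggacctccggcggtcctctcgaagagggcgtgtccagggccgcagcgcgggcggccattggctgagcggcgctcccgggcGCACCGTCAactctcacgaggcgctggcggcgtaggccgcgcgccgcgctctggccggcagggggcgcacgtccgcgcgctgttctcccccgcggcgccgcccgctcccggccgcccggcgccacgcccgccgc
Txnrd1, chr10:82858956-82859205, plus strand, motif beginning 92 bases before the start: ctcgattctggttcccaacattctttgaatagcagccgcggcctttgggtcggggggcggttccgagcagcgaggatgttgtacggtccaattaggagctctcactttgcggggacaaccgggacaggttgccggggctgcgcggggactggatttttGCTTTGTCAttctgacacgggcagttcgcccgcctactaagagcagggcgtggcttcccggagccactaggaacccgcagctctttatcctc
Sod1, chr16:90220512-90220761, plus strand, motif beginning 56 bases before the start: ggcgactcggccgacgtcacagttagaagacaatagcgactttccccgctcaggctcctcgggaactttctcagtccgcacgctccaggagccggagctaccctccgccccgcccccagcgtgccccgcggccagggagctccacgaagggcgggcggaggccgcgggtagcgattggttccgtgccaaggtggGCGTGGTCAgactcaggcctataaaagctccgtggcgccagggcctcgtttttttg
Nqo1, chr8:107403206-107403455, minus strand, no motif: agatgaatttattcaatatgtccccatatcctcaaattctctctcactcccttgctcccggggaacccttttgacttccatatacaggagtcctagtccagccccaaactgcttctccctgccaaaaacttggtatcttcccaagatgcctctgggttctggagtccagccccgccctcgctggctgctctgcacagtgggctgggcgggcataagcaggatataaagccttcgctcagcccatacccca

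The first comparison asked where in the untreated brain the members are high or low. In the AL females all 10 members differed between the 15 regions. In the PBS males 9 did, Sod1 being the exception (edgeR F test, Benjamini-Hochberg adjusted p = 0.0978). These tests held no term for the mouse, though the regions share mice. For Sod1 the PBS mice differed, with values over the brain from 7.84 (mouse 76) to 8.26 log2 CPM (mouse 84). Regional differences were the rule in these tissues: 98.1% of the 15324 genes tested passed in AL and 96.1% of 15415 in PBS. The ranges were modest for most members. From means of log2 levels in AL, the highest region stood 1.39-fold above the lowest for Sod2, the flattest member, and 3.72-fold above it for Hmox1, the steepest. In PBS these ranges ran from 1.36-fold for Sod2 to 5.50-fold for Nqo1, whose highest region there was the corpus callosum. The PBS libraries of that region held 5113, 13397 and 18905 CPM of choroid plexus markers. The part of plexus tissue in that range was not tested. The order of the regions was alike in the 2 sets of controls, with Pearson's r between their region means from 0.75 for Hmox1 to 0.98 for Gclm (n = 15 regions, a description only). Most neighbours in the order overlapped: of 14 neighbouring pairs, at most 2 had libraries that did not overlap for any member.

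**Figure D1:**
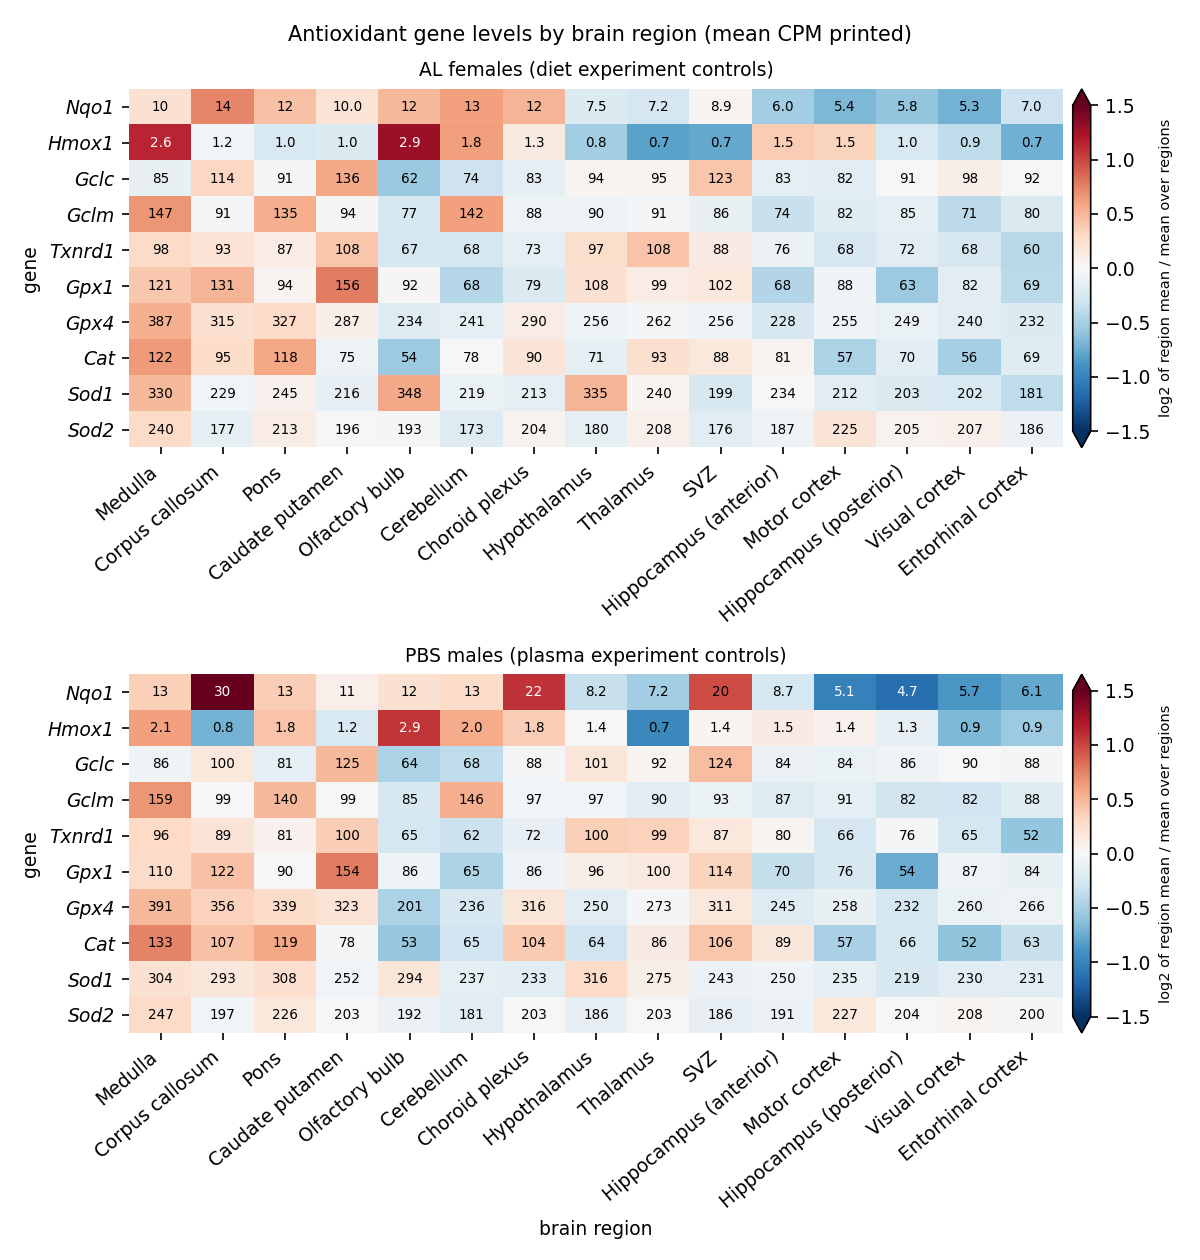
Mean level of each member (rows) in the 15 brain regions (columns) of AL females and PBS males; the printed number is the mean CPM and the colour is its log2 ratio to the mean over regions of the same row. Medulla and pons are red for Gclm, Gpx4, Cat and Sod2, the caudate putamen for Gclc, Txnrd1 and Gpx1, and the entorhinal and visual cortex are mostly blue.

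Compared per length of exon, Gpx4 was the most abundant member in the brain, with region means of 132 to 225 CPM per kb in AL. Gpx1 followed at 43.6 to 108, Sod1 at 45.7 to 87.7 and Cat at 20.7 to 46.9 CPM per kb. Nqo1 lay at 3.39 to 9.22 CPM per kb and Hmox1 at 0.388 to 1.66, the lowest. Hmox1 counts in AL brain libraries ran from 1 to 47, and the gene passed the filter on low counts in 6 of 15 regions in the diet and 9 of 15 in the plasma experiment. The other 9 members passed it in every region.

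The subunits of glutamate-cysteine ligase had different maps. Gclc was highest in the caudate putamen, at 128, 130, 139 and 147 CPM in the AL mice, and lowest in the olfactory bulb, at 58.7, 61.6, 63.3 and 65.1 CPM. The caudate putamen, SVZ (123 CPM) and corpus callosum (114 CPM) lay apart from the next region, the visual cortex (98.0 CPM). Gclm was highest in the medulla, at 135, 146, 147 and 162 CPM, followed by cerebellum (142 CPM) and pons (135 CPM). After these 3 hindbrain regions came a gap without overlap to the caudate putamen (93.6 CPM). The lowest Gclm level was that of the visual cortex, 70.5 ± 6.30 CPM (SD, n = 4). In the PBS males the same regions held both ends: Gclc ran from 125 ± 5.74 CPM in the caudate putamen (n = 4) to 64.2 ± 7.15 in the olfactory bulb (n = 4), and Gclm from 159 ± 22.5 in the medulla (n = 4) to 82.0 ± 5.30 in the visual cortex (n = 3).

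Among the peroxide enzymes, Gpx1 was highest in the caudate putamen, at 152, 154, 156 and 161 CPM in AL, above every library of the next region, the corpus callosum. It was lowest in the posterior hippocampus, at 58.6, 61.1, 62.6 and 68.9 CPM. Gpx4 was highest in the medulla, at 345, 356, 412 and 435 CPM in AL, and lowest in the anterior hippocampus, at 228 ± 19.2 CPM (n = 4). Cat was highest in the medulla, at 113, 121, 122 and 133 CPM, then in the pons (118 CPM), and lowest in the olfactory bulb, at 54.1 ± 2.05 CPM (n = 4). The PBS males had the same highest region for all of them, 154 ± 24.3 CPM for Gpx1, 391 ± 37.8 for Gpx4 and 133 ± 7.29 for Cat (n = 4 each). Their lowest regions were the posterior hippocampus for Gpx1 (53.6 CPM), the olfactory bulb for Gpx4 (201 CPM) and the visual cortex for Cat (52.4 CPM).

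The dismutases differed in their spread. Sod1 in AL was highest in the olfactory bulb, at 325, 327, 362 and 379 CPM, close to the hypothalamus (335 CPM) and the medulla (330 CPM), and lowest in the entorhinal cortex, at 155, 186 and 202 CPM. The olfactory bulb and medulla libraries lay above every pons library (229 to 259 CPM), and those of the hypothalamus, with a lowest value of 232 CPM, overlapped them. In PBS, Sod1 ran from 316 ± 71.1 CPM in the hypothalamus (n = 3) to 219 ± 44.4 in the posterior hippocampus (n = 3), and the regions were not shown to differ. Sod2 was highest in the medulla, at 240 ± 11.8 CPM in AL and 247 ± 13.2 in PBS (n = 4 each), and lowest in the cerebellum, at 173 ± 11.6 in AL (n = 4) and 181 ± 13.6 in PBS (n = 3).

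Among the reductases and heme oxygenase, Txnrd1 was highest in the thalamus (108 ± 18.1 CPM, n = 4) and caudate putamen (108 ± 3.73 CPM, n = 4) in AL and in the caudate putamen in PBS (100.5 ± 11.3 CPM, n = 4). It was lowest in the entorhinal cortex in both, at 60.3 ± 1.04 CPM (n = 3) and 52.1 ± 7.11 CPM (n = 4). Hmox1 was highest in the olfactory bulb, at 2.76, 2.83, 2.99 and 3.08 CPM in AL and 2.90 ± 0.168 CPM in PBS (n = 4), and lowest in the thalamus, at 0.680 ± 0.394 and 0.708 ± 0.425 CPM (n = 4 each). By arithmetic mean Nqo1 was highest in the corpus callosum, at 7.69, 9.997 and 25.3 CPM in AL and 14.5, 28.9 and 47.0 CPM in PBS. These PBS libraries held, in the same order, 5113, 13397 and 18905 CPM of choroid plexus markers. Nqo1 was lowest in the visual cortex in AL (5.27 ± 0.637 CPM, n = 4) and in the posterior hippocampus in PBS (4.74 ± 0.25 CPM, n = 3). By mean log2 level the cerebellum came first in AL, with 11.5, 12.1, 12.2 and 17.1 CPM. The Nqo1 level of the AL corpus callosum rested on mouse 66: its log2 difference from the mean of the other 14 regions was 0.81 (SE 0.21, adjusted p = 0.00155) with that mouse and 0.11 (adjusted p = 0.777) without it, and this library held 11513 CPM of choroid plexus markers against 47.6 and 1197 CPM in the other AL callosum libraries.

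The medulla held the highest level of Gclm, Gpx4, Cat and Sod2 in AL and in PBS. Against the mean of the other 14 regions, 8 of 10 members were higher and 0 lower in the AL medulla, where 31.9% of all genes were higher, and 7 were higher and 0 lower in the PBS medulla, where 30.2% were. In the caudate putamen, Gclc, Txnrd1 and Gpx1 were higher in AL, with 28.6% of all genes higher, and the same genes with Gpx4 in PBS, with 23.2%. The entorhinal and visual cortex lay at the low end: 5 members were lower and 0 higher in the AL entorhinal cortex (17.4% of genes lower), and 5 were lower and 0 higher in the AL visual cortex (22.3% lower). In bulk tissue, fewer cells of a type and less RNA per cell cannot be told apart, and the part of cell composition in these maps was not tested.

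Over the 15 region means of the controls, Gpx4 and Cat were the pair of members with the most similar pattern (Pearson's r = 0.83), followed by Txnrd1 and Gpx1 (r = 0.72), and Hmox1 and Gclc ran most strongly opposite (r = -0.67). Among 14203 genes, those closest to Nqo1 were Pla2g16 (r = 0.94), Tent5c (0.93) and Bloc1s1 (0.92), and those closest to Hmox1 were Card9 (0.88), Gpbp1l1 (0.88) and Iglon5 (0.87). For Gclc they were Tmem185a (0.96), Otud6b (0.91) and Clptm1 (0.89), and for Gclm Bola3 (0.96), S100b (0.96) and Tmem229b (0.94). Txnrd1 lay closest to Ppcdc (0.91), Gpr149 (0.90) and Srpr (0.90), and Gpx1 to Htr1d (0.92), Rasgrp2 (0.92) and Mmp11 (0.90). The genes nearest to Gpx4 were Tmbim4 (0.96), Ntan1 (0.91) and Rtn4ip1 (0.90), and those nearest to Cat were Wrap53 (0.94), Trim36 (0.94) and Slc29a3 (0.94). Near Sod1 lay the ribosomal protein gene Rps27a (0.92) and Lbh (0.90), and Sod2 lay closest to Map1a (0.94), Rtca (0.92) and Ndufv1 (0.91). These are correlations over 15 region means that share mice and libraries, and the closest of many genes is high by selection.

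The next comparison set the liver against the brain in the AL females. After TMM scaling all 10 members were higher in liver than in the mean of the 15 regions, where 38.7% of all genes were higher and the median gene was at -0.28 on the log2 scale. Cat led, with 5357, 4189, 3831 and 4967 CPM in the 4 AL livers against region means of 54.1 to 122 CPM, a log2 difference of 5.89 (59.1-fold). Gpx1 was 5.16 higher on the log2 scale (35.8-fold), Hmox1 4.15, Sod1 3.91, Gclm 2.57, Nqo1 2.23 and Gclc 1.66. Txnrd1 (1.01), Sod2 (0.94) and Gpx4 (0.73) differed least. Every one of the 4 liver libraries lay above every brain region mean for 9 members, and for Gpx4 the liver libraries (331 to 533 CPM) overlapped the region means (228 to 387 CPM). Per length of exon, Gpx1 stood first in AL liver with 2238 CPM per kb, before Cat with 1755 and Sod1 with 878, while Gpx4, first in the brain, had 253.

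**Figure D2:**
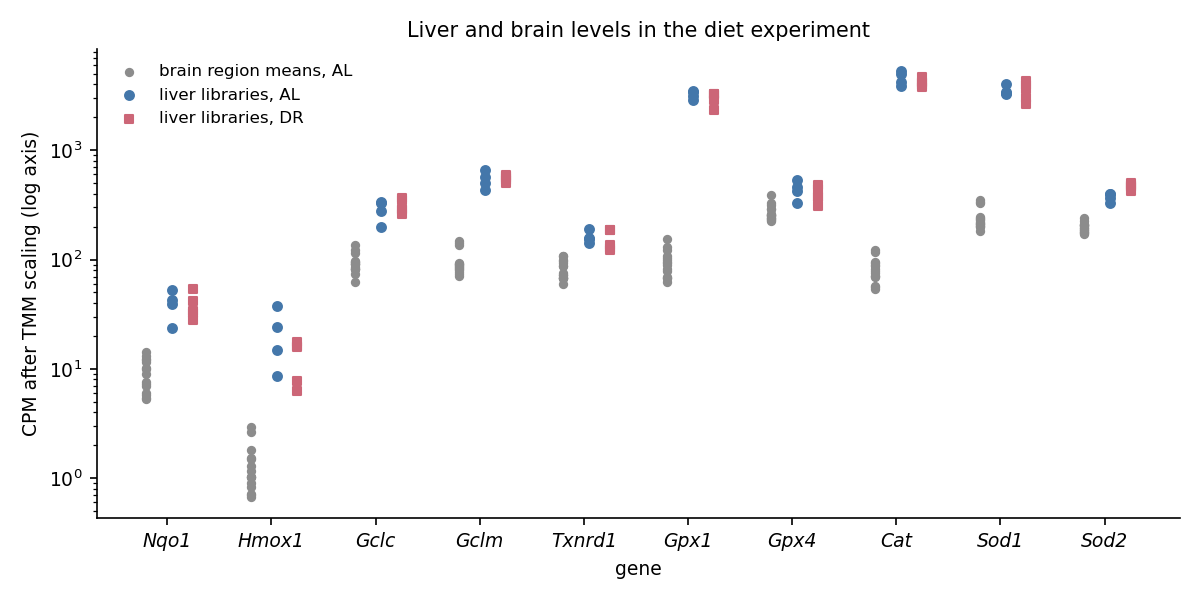
Level of each member (x axis) in CPM after TMM scaling on a log axis; grey points are the 15 brain region means of AL females and coloured points are single liver libraries of AL (4) and DR (5) females. Cat, Gpx1 and Sod1 lie farthest above the brain in liver, while Gpx4 in liver overlaps the range of the brain region means.

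The 3 smallest liver differences depended on the scaling. With library totals alone, the median gene moved to -1.22 on the log2 scale, Gpx4 was lower in liver by 0.22 (adjusted p = 0.00639), and Sod2 (-0.0033, adjusted p = 0.9746) and Txnrd1 (0.069, adjusted p = 0.332) did not pass. On that scale Gpx4 had 237 ± 33.3 CPM in liver (n = 4) against a median of 269 CPM over the brain region means. The other 7 members were higher in liver under both scalings.

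The diet comparison asked whether dietary restriction changed these genes in the brain. Within single regions no member passed (edgeR quasi-likelihood test, 141 tests of a member in a region, smallest adjusted p = 0.284), where 0.0525% of 205693 tests of all genes passed. DESeq2 called 0 members in a brain region. Unadjusted p-values under 0.05 were reached in 18 of the 141 tests (12.8%), against 6.24% of the tests of all genes, and 6 of these 18 belonged to Gclc. The groups did not overlap in 5 tests (3.55%), against 3.04% over all genes.

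Taking 1 value per mouse over the 15 regions, again no member passed (limma, 9 mice), while 0.922% of 15616 genes did. The median log2 difference of the 10 members was 0.019, against -0.0062 for all genes. Unadjusted p-values under 0.05 belonged to Gclc, Gpx4 and Nqo1, 3 of 10 members, against 16.1% of all genes. The groups did not overlap for Gclc and Gpx4, against 8.3% of all genes.

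Gclc was the member closest to the threshold. Its mouse values were 6.66, 6.67, 6.67, 6.68 and 6.68 log2 CPM in the aDR females and 6.52, 6.56, 6.57 and 6.59 in the AL females. Every restricted mouse lay above every freely fed one. The log2 difference was 0.11 (SE 0.025, 95% interval 0.056 to 0.17, adjusted p = 0.0765), a 1.08-fold higher level, and Gclc was higher in 14 of 15 regions, the caudate putamen being the exception (-0.061, and 0.028 without aDR mouse 64). The largest regional difference was that of the hypothalamus, where the aDR libraries had 110.1 ± 10.1 CPM (n = 4) and the AL libraries 94.3 ± 8.30 (n = 4), a log2 difference of 0.23 (adjusted p = 0.986). In the visual cortex, chosen after its values were seen, the aDR libraries had 110.3, 112, 113, 114 and 117 CPM and the AL libraries 85.6, 100.2, 103 and 103, without overlap, as for 3.14% of all genes there (log2 difference 0.21, adjusted p = 0.284). A fit of all brain libraries with the mouse as a replicate block called 9.44% of all genes. Gclc passed in it (log2 difference 0.11, SE 0.026, limma adjusted p = 0.00188). That fit used 1 correlation between libraries of a mouse for all genes and took its degrees of freedom from libraries. Its p-values therefore do not rest on the 9 mice alone.

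Gpx4 had mouse values of 8.15 to 8.30 log2 CPM in aDR and 8.07 to 8.11 in AL, and these ranges did not overlap. The log2 difference was 0.11 (SE 0.033, adjusted p = 0.143), with a higher mean in 12 of 15 regions. Its largest regional difference was that of the caudate putamen, where the aDR libraries had 314, 315, 327, 389 and 1044 CPM and the AL libraries 269, 276, 297 and 306. The value of 1044 CPM belonged to aDR mouse 64. With that mouse the log2 difference was 0.71 (SE 0.34, adjusted p = 0.618) and without it 0.23 (SE 0.088, adjusted p = 0.387). Over all regions the log2 difference of Gpx4 without mouse 64 was 0.093 (adjusted p = 0.142).

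The same caudate putamen library set the largest regional differences of Gpx1 and Sod1. Gpx1 had 135, 156, 157, 194 and 378 CPM in the aDR and 152, 154, 156 and 161 CPM in the AL caudate putamen. Its log2 difference of 0.37 (adjusted p = 0.651) became 0.050 (adjusted p = 0.849) without mouse 64, the highest of the aDR values. Sod1 had 221, 254, 256, 290 and 414 CPM in aDR and 180, 220, 231 and 233 in AL, and its log2 difference of 0.40 (adjusted p = 0.618) became 0.25 (adjusted p = 0.406). The ribosomal protein genes of this library are given above, and the part of library quality in these differences was not tested.

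Nqo1 had mouse values of 3.16 to 3.59 log2 CPM in aDR and 3.03 to 3.29 in AL. The groups overlapped, and the log2 difference was 0.20 (SE 0.085, adjusted p = 0.294), with a higher mean in 14 of 15 regions. Without the choroid plexus it was 0.20 (adjusted p = 0.204), and without the choroid plexus, SVZ and corpus callosum 0.17 (adjusted p = 0.185). The largest regional difference was that of the SVZ (0.51, adjusted p = 0.981), where the aDR libraries had 8.60, 8.61, 9.82, 14.1 and 20.6 CPM and the AL libraries 7.71, 7.87, 9.86 and 10.2. The aDR libraries with 14.1 and 20.6 CPM of Nqo1 held 5287 and 9685 CPM of choroid plexus markers, and the AL libraries between 57.2 and 3099. The aDR libraries with 8.60 and 8.61 CPM of Nqo1 held 206 and 28.6 CPM of markers. That of aDR mouse 62 departed from this order, with 5064 CPM of markers and 9.82 CPM of Nqo1, within the AL range. Sod2 had the opposite sign, with mouse values of 7.52 to 7.63 in aDR and 7.61 to 7.72 in AL, a log2 difference of -0.075 (SE 0.034, adjusted p = 0.329) and a lower mean in 13 of 15 regions. In the fit with the mouse as a replicate block, Nqo1 (0.25, adjusted p = 0.0227) and Sod2 (-0.075, adjusted p = 0.00715) passed beside Gclc. As stated for Gclc, those p-values do not rest on the mice alone.

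The other members lay close to 0 over the brain. The log2 differences were -0.033 for Hmox1, -0.0033 for Gclm, 0.016 for Txnrd1, 0.031 for Gpx1, -0.0077 for Cat and 0.022 for Sod1, with adjusted p-values of 0.824 or more. The 95% interval of Gclm ran from -0.083 to 0.076 and that of Txnrd1 from -0.057 to 0.089, so a change of more than 1.06-fold in either direction lay outside both. That of Hmox1, with its low counts, ran from -0.25 to 0.18. Their largest regional differences were -0.56 in the cerebellum for Hmox1, -0.16 in the pons for Gclm, -0.18 in the caudate putamen for Txnrd1 and -0.20 in the cerebellum for Cat, and that of Sod2 was -0.18 in the entorhinal cortex, all with adjusted p-values of 0.296 or more. The pons value of Gclm rested on the library of aDR mouse 67, which had 64.4 CPM against 107 to 146 CPM in the other aDR and 112 to 151 CPM in the AL libraries, and without it the log2 difference was -0.018 (adjusted p = 0.9998). The caudate putamen value of Txnrd1 was -0.10 (adjusted p = 0.540) without aDR mouse 64. Whether the diet effect differed between regions was tested directly, and no member passed (edgeR F test, 0 of 10 at an unadjusted p under 0.05), against 0.0128% of all genes.

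**Figure D3:**
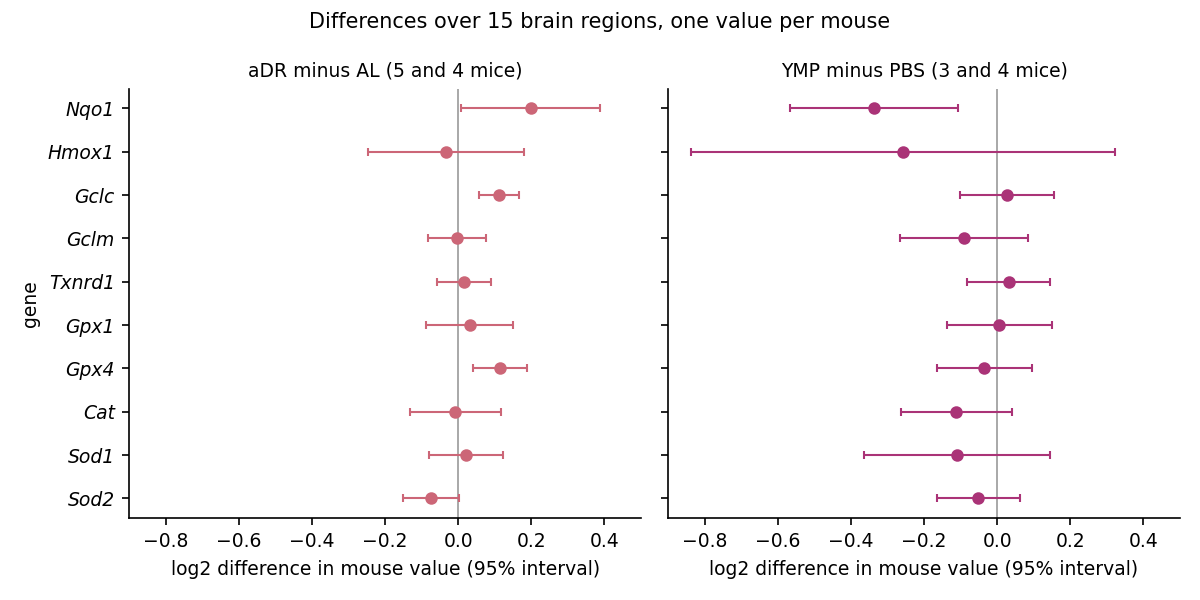
Log2 difference of each member over 15 brain regions, from 1 value per mouse, with its 95% interval; left, 5 aDR minus 4 AL females, right, 3 YMP minus 4 PBS males. Gclc and Gpx4 lie above 0 on the left with short intervals, and Nqo1 lies farthest below 0 on the right.

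**Figure D4:**
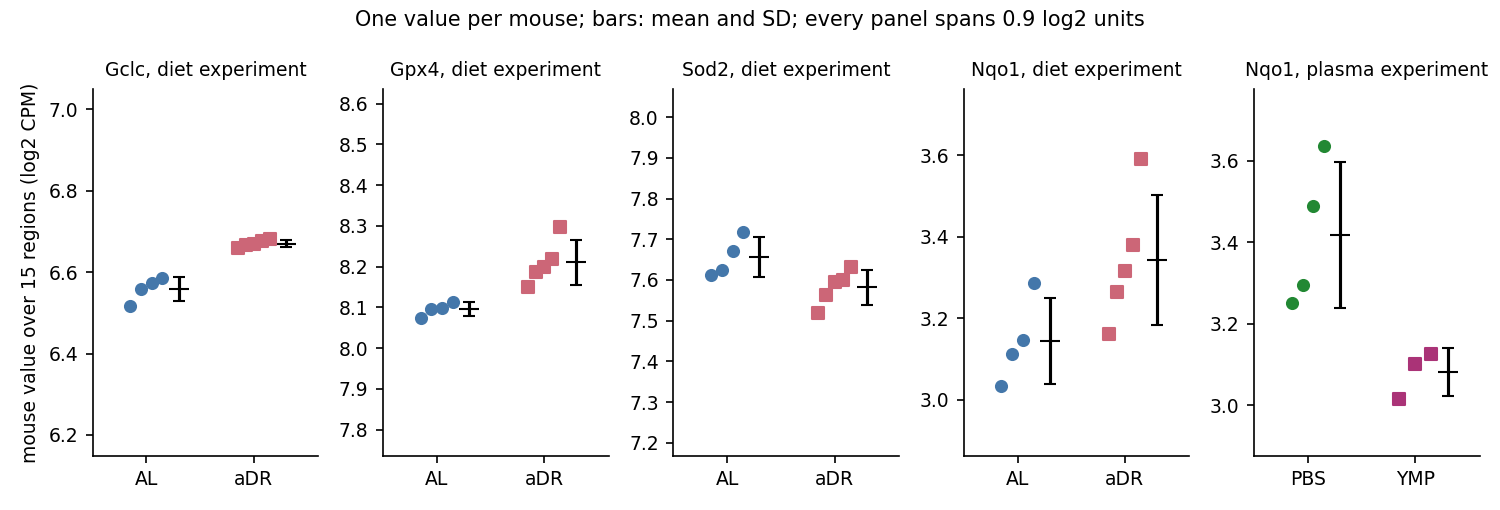
Mouse values over 15 brain regions in log2 CPM for Gclc, Gpx4, Sod2 and Nqo1 in the diet experiment and Nqo1 in the plasma experiment; each point is 1 mouse, and bars give mean and SD. The groups do not overlap for Gclc and Gpx4 in the diet and for Nqo1 in the plasma experiment.

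Red blood cell markers (Hba-a1, Hba-a2, Hbb-bs, Hbb-bt, Alas2) had positive diet differences over the brain for 5 of 5 genes, none passing the test, with a median log2 difference of 0.93, and their sum ran from 1.57 to 141 CPM in aDR and from 0.855 to 57.8 CPM in AL brain libraries. Endothelial markers (Cldn5, Flt1, Pecam1, Ly6c1, Slco1a4) had positive differences for 2 of 5 genes and a median of -0.26, with 2 of 5 passing the test. Choroid plexus markers had positive differences for 5 of 6 genes, none passing the test, with a median of 0.19. Sums of endothelial markers ran from 96.6 to 264 CPM in aDR and from 120 to 285 CPM in AL. No marker of these lists was at 0 throughout. The part of blood, vessel or choroid plexus content in the differences of Gclc, Gpx4, Nqo1 and Sod2 was not tested. In the other lists, positive were 0 of 6 microglia (median -0.050), 5 of 7 myeloid (0.14) and 3 of 5 oligodendrocyte markers (0.083). So were 3 of 5 neuron, 2 of 6 astrocyte, 2 of 5 meningeal fibroblast, 1 of 4 ependymal and 0 of 3 tested hepatocyte markers. None of these passed, and their part was not tested either.

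In the liver, restricted and freely fed females were compared with 5 and 4 libraries. No member passed by edgeR, against 0.22% of 11815 genes. An unadjusted p under 0.05 was reached by 1 of 10 members, near the share of all genes that is given below with the wider set. That member was Sod2. The DR livers had 423, 456, 471, 480 and 497 CPM of Sod2 and the AL livers 327, 364, 394 and 402, without overlap, as for 3.96% of all genes. The log2 difference was 0.35 (SE 0.12, 1 of 10 members, edgeR adjusted p = 0.382), and DESeq2, which called 1.9% of the genes it tested, gave the same difference with an adjusted p of 0.0202. Endothelial markers also did not overlap in these libraries, with sums of 353 to 470 CPM in DR and 237 to 346 CPM in AL, and their part in the Sod2 difference was not tested.

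The Sod2 difference had opposite signs in liver (0.35) and brain (-0.075). Tested in the same mice, liver minus brain was 0.42 (SE 0.13, limma, unadjusted p = 0.00745, adjusted p = 0.319), so the 2 tissues were not shown to differ after adjustment, and 0.0881% of all genes passed. Hmox1 had a log2 difference of -0.75 in liver (adjusted p = 0.676), with 6.26, 7.79, 15.7, 16.1 and 17.5 CPM in DR and 8.67, 14.7, 24.4 and 37.4 in AL, and the groups overlapped. It moved to -0.33 without AL mouse 68, the highest of the AL livers. Cat had 4159 ± 350 CPM in DR (SD, n = 5) and 4586 ± 699 in AL (n = 4), Gpx1 2993 ± 394 and 3225 ± 288, and Sod1 3506 ± 670 and 3488 ± 346, none beyond the spread between mice. Gclc, Gclm, Nqo1, Txnrd1 and Gpx4 had log2 differences between -0.12 and 0.15, with adjusted p-values of 0.914 or more.

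The plasma comparison asked whether young mouse plasma changed the same genes in old males. Within regions no member passed (edgeR, 144 tests of a member in a region, smallest adjusted p = 0.241), against 0.0127% of 205500 tests of all genes. Unadjusted p-values under 0.05 were reached in 11 tests (7.64%), against 6.11% over all genes, and the groups did not overlap in 13 (9.03%), against 9.22%. DESeq2 called 1, Nqo1 in the corpus callosum. With 1 value per mouse over the 15 regions no member passed (limma, 7 mice), and 0 of 15768 genes did. Of the 10 members, 1 had an unadjusted p under 0.05, against 8.09% of all genes.

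That member was Nqo1, with mouse values of 3.02, 3.10 and 3.13 log2 CPM in YMP and 3.25, 3.30, 3.49 and 3.64 in PBS. The groups did not overlap, as for 10.1% of all genes. The log2 difference was -0.34 (SE 0.097, 95% interval -0.57 to -0.11, adjusted p = 0.480), with a lower mean in 11 of 15 regions. The fit of all libraries with the mouse as a replicate block called 3.09% of genes, with p-values that do not rest on mice alone. In that fit the log2 difference was -0.61 (adjusted p = 0.0208). With 1 value per mouse and without the choroid plexus, SVZ and corpus callosum, the log2 difference was -0.14 (adjusted p = 0.958). That alternative was chosen after the data were seen.

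The largest Nqo1 differences lay in the SVZ and the corpus callosum. In the SVZ the PBS libraries had 4.85, 12.1, 17.2 and 47.7 CPM and the YMP libraries 6.06, 6.33 and 7.03, a log2 difference of -1.76 (SE 0.64, adjusted p = 0.296) with overlapping groups. Without PBS mouse 72, which held the value of 47.7 CPM, it was -0.94 (adjusted p = 0.241). In the corpus callosum, chosen after its values were seen, the PBS libraries had 14.5, 28.9 and 47.0 CPM and the YMP libraries 9.29 and 10.5, without overlap, as for 24.4% of all genes. The log2 difference was -1.69 (SE 0.44, edgeR adjusted p = 0.241), and DESeq2, which called 2.05% of the genes it tested there, gave -1.66 (adjusted p = 0.0150). Nqo1 in the corpus callosum also passed in edgeR without PBS mouse 84 (-2.01, adjusted p = 0.00108, with 4.82% of genes called) and without the filter on low counts (-1.69, adjusted p = 0.0146, with 1.83% called).

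Choroid plexus markers moved with Nqo1 in these dissections. Their sum was 2705, 2850, 8402 and 20514 CPM in the PBS and 26.7, 30.4 and 48.1 CPM in the YMP SVZ libraries. In the corpus callosum it was 5113, 13397 and 18905 CPM in PBS and 10.1 and 21.4 CPM in YMP, where Ttr was at 0 in 1 library. In both regions the library with the largest marker sum held the most Nqo1, and PBS mouse 84 in the SVZ, with 2850 CPM of markers and 4.85 CPM of Nqo1, departed from this order. In the libraries labelled choroid plexus, YMP mouse 73 had 158 CPM of markers with 4.43 CPM of Nqo1, and YMP mouse 77 had 15594 CPM with 31.0 CPM. Over the brain, 6 of 6 markers had negative differences (median log2 difference -1.23), and none passed the test. Negative differences were also found for 5 of 5 meningeal fibroblast markers (median -0.29) and 5 of 5 red blood cell markers (-0.32). The same held for 5 of 5 oligodendrocyte (-0.15), 4 of 4 ependymal (-0.083) and all 3 tested hepatocyte markers (-0.062). In the other lists 1 of 6 astrocyte, 1 of 6 microglia, 2 of 5 endothelial, 3 of 7 myeloid and 4 of 5 neuron markers were positive. None of these markers passed the test. The part of choroid plexus tissue in the Nqo1 difference was not tested beyond leaving those regions out, and that of the other lists was not tested.

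**Figure D5:**
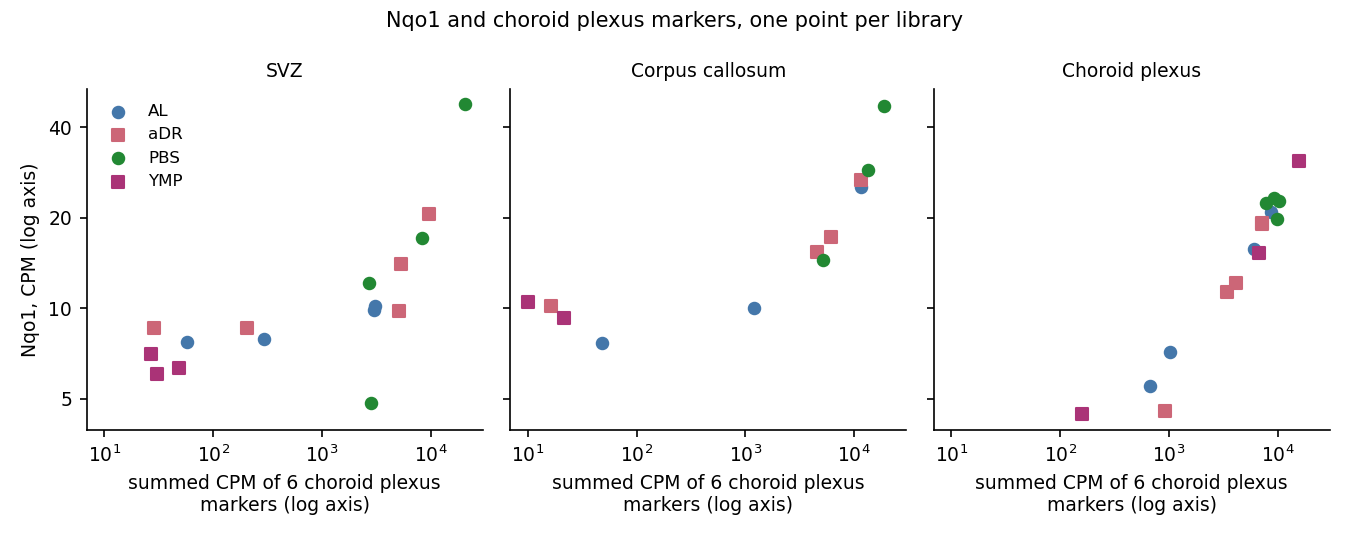
Nqo1 level (y axis, CPM, log axis) against the summed CPM of 6 choroid plexus markers (x axis, log axis) in the SVZ, corpus callosum and choroid plexus; each point is 1 library, with colour and shape for the 4 groups. The PBS libraries with 20514 CPM (SVZ) and 18905 CPM (corpus callosum) of markers hold the highest Nqo1 levels, 47.7 and 47.0 CPM, and the YMP libraries of these 2 regions lie at the left end.

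Whether the plasma effect differed between regions was also tested. No member passed (edgeR F test), against 0.786% of all genes. Nqo1 was the single member with an unadjusted p under 0.05 (adjusted p = 0.277). With the corpus callosum left out its adjusted p was 0.781, and with the choroid plexus left out 0.0520.

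The other members did not follow 1 direction under plasma. Log2 differences over the brain were 0.027 for Gclc, 0.031 for Txnrd1, 0.0065 for Gpx1, -0.035 for Gpx4, -0.051 for Sod2, -0.091 for Gclm, -0.11 for Cat and Sod1 and -0.26 for Hmox1, all with overlapping groups and adjusted p-values of 0.688 or more. The median over the 10 members was -0.071, against -0.0037 for all genes. The largest regional differences of Hmox1 (-0.84), Gpx4 (-0.40) and Cat (-0.54) lay in the SVZ and those of Sod1 (-0.60) and Sod2 (-0.29) in the corpus callosum, the dissections with the unequal plexus markers. Sod1 in the corpus callosum had 238, 305 and 336 CPM in PBS and 181 and 216 in YMP, without overlap, as for 24.4% of all genes there (adjusted p = 0.370). Cat in the SVZ had 74.8, 84.0, 117 and 149 CPM in PBS and 62.4, 75.7 and 84.6 in YMP, with overlap (adjusted p = 0.380).

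Elsewhere, the largest difference of Gclc lay in the hypothalamus, with 82.2, 87.7 and 88.4 CPM in YMP against 95.1, 102 and 106 in PBS, without overlap, as for 9.35% of all genes there (log2 difference -0.23, adjusted p = 0.998). Under diet, in females, the same gene in the same region had a difference of 0.23 (edgeR adjusted p = 0.986), and the experiments were not compared. Gclm differed most in the anterior hippocampus (-0.28, adjusted p = 0.683) and Txnrd1 in the entorhinal cortex (0.30, adjusted p = 0.910). Gpx1 differed most in the choroid plexus (0.31, adjusted p = 0.9996), where the YMP libraries had 60.7, 71.2 and 191 CPM and the PBS libraries 71.8 to 104. Sod1 in the cerebellum had 211, 239 and 260 CPM in PBS and 189, 195 and 203 in YMP, without overlap, as for 16.4% of all genes there (-0.27, adjusted p = 0.433), and passed only without PBS mouse 84 (-0.36, adjusted p = 0.0361, with 0.825% of genes called).

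A wider set of 81 genes of the same pathways in 5 lists was counted beside the members. Over the brain, 77 were tested in each experiment. Under diet 0 passed in either direction, 17 had an unadjusted p under 0.05, against 16.1% of all genes, and 55 had a positive difference, against 7280 of all 15616 genes, the median of all 77 being 0.047, against -0.0062 for all genes. The largest share was that of the thioredoxin and peroxiredoxin genes, with 10 of 12 positive (median 0.021). It was followed by 8 of 11 Nrf2 regulators (0.030) and 7 of 10 peroxide, superoxide and methionine sulfoxide enzymes (0.037). Then came 16 of 23 NADPH and detoxification genes (0.041) and 14 of 21 glutathione genes (0.083). The positive regulators included both Nfe2l2 (0.12) and Keap1 (0.099), which holds Nrf2 back, so their share gives no direction for the pathway. The genes closest to the threshold, named after their values were seen, were Ccs, Gsr and Slc3a2. Ccs, the copper chaperone of Sod1, had 0.18 (SE 0.036, limma adjusted p = 0.0585). Gsr, glutathione reductase, had 0.11 (adjusted p = 0.0939). Slc3a2, the heavy chain of the cystine transporter, had 0.10 (adjusted p = 0.0976). Bach2 followed with -0.19 (adjusted p = 0.103), and the transporter gene Slc7a11 had -0.048 (adjusted p = 0.796). Under plasma 0 passed, 8 had an unadjusted p under 0.05, against 8.09% of all genes, and 25 of 77 had a positive difference, against 7607 of all 15768 genes, with a median of -0.033 over the 77.

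In single brain regions 0 wider genes passed in either experiment, and in the DR liver 0 of 76 did, 16 with an unadjusted p under 0.05, against 1074 of all 11815 genes, and 32 with a positive difference, against 6250 (median -0.042, against 0.018 for all genes). In AL liver against brain, 58 of 78 were higher and 16 lower, where 38.7% of all genes were higher and 47.5% lower, with a median of 1.49, against -0.28 for all genes. Higher were 9 of 11 Nrf2 regulators, 15 of 21 glutathione genes and 11 of 12 thioredoxin and peroxiredoxin genes. So were 6 of 10 peroxide, superoxide and methionine sulfoxide enzymes and 17 of 24 NADPH and detoxification genes. The regulators counted as higher include both Nfe2l2 (2.74) and Keap1 (0.36).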

How the data were processed

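RNA from 15 brain regions and the liver was made into unstranded Smart-Seq2 and Nextera XT libraries, per the labels. The table deposited by the authors holds whole-number counts per gene, not normalized, for 21076 gene rows, of which 537 were 0 in every library. Trim Galore 0.3.7, STAR 2.5.3a, DESeq2 and the GRCm38 build are named per the submitters' processing notes, and the counting program and annotation are not given in the sources used here.

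Samples were grouped by the labelled tissue and treatment. Each region was fitted alone with edgeR 4.0.16 (R 4.3.3): filterByExpr with a minimum count of 10, TMM scaling, the quasi-likelihood test, and Benjamini-Hochberg adjustment over all genes tested, with an adjusted p under 0.05 called. For the brain as a whole, 1 value per mouse was estimated from log2 CPM (prior count 2) in a linear model of mouse and region, which allows for missing libraries, and tested with limma 3.58.1. Differences between regions and between liver and brain used edgeR over the AL or PBS libraries. DESeq2 1.42.0, RLE scaling, no filter, prior count 0.5, regions and shallow libraries left out, a replicate block and each mouse left out in turn were the alternatives. Libraries of 1 mouse come from the same animal, per the labels, and their deviations from group means correlated at 0.04 in the diet and 0.07 in the plasma experiment, against -0.005 and -0.01 between mice. The statistics were tested on simulated data, and figures were drawn with matplotlib 3.10.9.

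All members were named. For each member and experiment the region with the largest absolute log2 change was named, and for levels the highest and lowest region. The 3 most similar genes were taken among those averaging 1 CPM or more. One of them, and a marker sum, are not reported here. The members and lists were chosen with earlier results of these data known.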

Additional observations from a re-analysis of the deposited data

Results flagged for a closer look

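In 6 of 103 groups of 4 or 5 samples looked at, 1 sample lay far from the others by Dixon's criterion, which chance meets in about 5% of groups. In the cerebellum of AL mouse 66, Hmox1 was at 0.916 CPM, against 2.05 to 2.19 CPM in the other 3. Gclc in the olfactory bulb of PBS mouse 72 was at 74.8 CPM, against 59.5 to 61.5 CPM. Txnrd1 in the caudate putamen of AL mouse 63 was at 113 CPM, against 105 to 106 CPM, and the brain value of Txnrd1 in PBS mouse 84 was 6.40 log2 CPM, against 6.28 to 6.29. In the caudate putamen of aDR mouse 64, Gpx1 was at 378 CPM, against 135 to 194 CPM, and Gpx4 at 1044 CPM, against 314 to 389 CPM. Both values come from the library with the high share of ribosomal protein genes.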

How the results depend on the processing

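The counts of members called depended on the test. Within regions and liver the diet count of 0 became 1 with DESeq2, and the plasma count of 0 became 1 with DESeq2 and 1 without the filter on low counts. Leaving out each mouse gave 0 to 2 plasma calls, the 2 without PBS mouse 84. Over the brain, the fit of all libraries with the mouse as a replicate block gave 3 diet calls and 1 plasma call, and with no replicate block 4 and 3. With no block, libraries of the same mouse are counted as independent replicates of the treatment, so those calls do not rest on mice as units. With the block, 1 correlation serves all genes and the degrees of freedom come from libraries. Those calls therefore do not rest on mice alone either. The diet difference of Gclc was 0.11 in the block fit (SE 0.026) and with 1 value per mouse (SE 0.025). Why the counts differed between the tests was not tested.

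Some values near 0 changed sign. Hmox1 under diet was 0.036 with the replicate block and 0.023 with none. Gpx1 under plasma was -0.0018 without the choroid plexus and -0.00050 without choroid plexus, SVZ and corpus callosum. With library totals alone, an alternative chosen after seeing the data, the liver differences of Gpx4 and Sod2 were -0.22 and -0.0033. Leaving out each mouse gave these ranges over the brain under diet: -0.048 to 0.028 for Cat, -0.019 to 0.019 for Gclm, -0.0031 to 0.057 for Gpx1, -0.092 to 0.029 for Hmox1 and -0.0067 to 0.044 for Sod1. Under plasma they were -0.011 to 0.057 for Gclc, -0.034 to 0.046 for Gpx1 and, in the choroid plexus, -0.42 to 0.61 for Gpx1. In the liver under diet they were -0.028 to 0.15 for Gclm, -0.22 to 0.13 for Nqo1, -0.040 to 0.12 for Sod1 and -0.14 to 0.018 for Txnrd1. For liver minus brain they were -0.11 to 0.15 for Gclc, -0.0079 to 0.16 for Gclm and -0.098 to 0.12 for Sod1. Low counts limit Hmox1, and groups of 2 to 5 mice limit all treatment comparisons.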
